A study of Mus musculus with 6 samples.

Results

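A set of 9 genes of inflammasome signalling and programmed cell death was followed across 6 RNA-seq libraries of mouse large intestine, each found by symbol among the 35434 genes of the deposited table. They are the sensors Nlrp3 and Nlrp6, the adaptor Pycard, the inflammatory caspases Casp1 and Casp4, the caspase Casp8, the kinases Ripk1 and Ripk3 and the pore-forming effector Mlkl. The mice had inflammatory bowel disease (IBD) and had been given regulatory T cells (Tregs), either control cells or cells treated with lenvatinib, an inhibitor of several receptor tyrosine kinases. The libraries are titled int 2 and int 3, with 3 of each, and the titles do not tell which transfer is which, so every difference is given as int 3 minus int 2 without a treatment. Strain, sex, age, dose and time, the way IBD was induced and whether each library is a separate animal are not given in the sources used here. The p-values therefore measure the spread between these libraries, which may be technical.

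Inflammasomes are protein platforms that form when a sensor such as NLRP3 or NLRP6 meets signs of infection or damage, and the adaptor ASC, the product of Pycard, links the sensor to caspase-1. Active caspase-1 matures the cytokines IL-1 beta and IL-18 and cuts gasdermin D into pore-forming pieces, and mouse caspase-11, the product of Casp4, does the latter in response to bacterial lipopolysaccharide in the cytosol. Necroptosis runs through RIPK3, which phosphorylates MLKL so that it ruptures the membrane, and caspase-8 restrains that route by cleaving the RIP kinases. In the gut, these genes act in epithelial cells and in resident phagocytes.

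Depth was even, at 34022000 to 35061000 fragments a library, as read from the steps of the deposited values, which are in FPKM (fragments divided by gene length in kilobases and by library size). The spread was not. Within int 2 the fragments of a gene varied with a mean chi-square of 2.85 per degree of freedom, where sampling alone gives 1, and within int 3 the value was 81.7. Int 3-1 lay between int 3-2 and int 3-3 in 96.6% of the 2919 tested genes in which those libraries differed by over 1.5 times, at a median of 0.475 of the way from int 3-3 to int 3-2. By the same rule int 2-1, int 2-2 and int 2-3 lay between the others in 62.0%, 69.8% and 67.8% of 187, 182 and 152 genes. Hoxb13, a positional gene of the hindgut, shows this place of int 3-1. It stood at 285 to 288 FPKM in int 2 and, by replicate number, at 146, 16.4 and 267 in int 3. The 3 libraries of a group may therefore not be independent, which was not tested further, and an SE or p that takes them as 3 may then be too small. Calls of the 9 genes and of the named pathway genes that were lost without int 3-1 are given as such.

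The tissue label was checked against marker genes. Markers of epithelium and of smooth muscle were abundant in all 6 libraries, with summed levels of 4269 to 5356 and 3230 to 4041 FPKM. These markers are not particular to the large intestine, so they cannot tell it from other parts of the gut.

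The largest differences among the 9 genes were those of the necroptosis pair Ripk3 and Mlkl and of Casp4, each close to a doubling. Of the 8 tested genes 6 rose in int 3 (Ripk3, Mlkl, Casp4, Nlrp6, Pycard and Casp1), 0 fell and 2, Casp8 and Ripk1, did not pass. The test was limma's on log2(FPKM + 1), with Benjamini-Hochberg adjustment over the 12525 genes that reached FPKM 1 in 3 or more libraries, and a threshold of 0.05. By this test 8.64% of all tested genes rose and 6.70% fell (1082 and 839 genes, or 1274 and 609 after conversion to TPM). All 8 tested genes were at FPKM 1 or more in all 6 libraries, so none entered through the group in which it was higher. Their median log2 change was 0.36, against 0.03 for all tested genes. At an unadjusted p under 0.05 there were 8 higher and 0 lower among the 8, in limma's test and also with voom, the count-weighted form of limma. Over all tested genes 18.0% were higher and 14.1% lower at that threshold in limma's test, and 15.2% and 16.4% with voom. The 9 genes were chosen with earlier results of these data known, so these comparisons with all genes do not test the set. In a bulk library more cells that express a gene and more RNA per cell cannot be told apart.

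**Figure D1:**
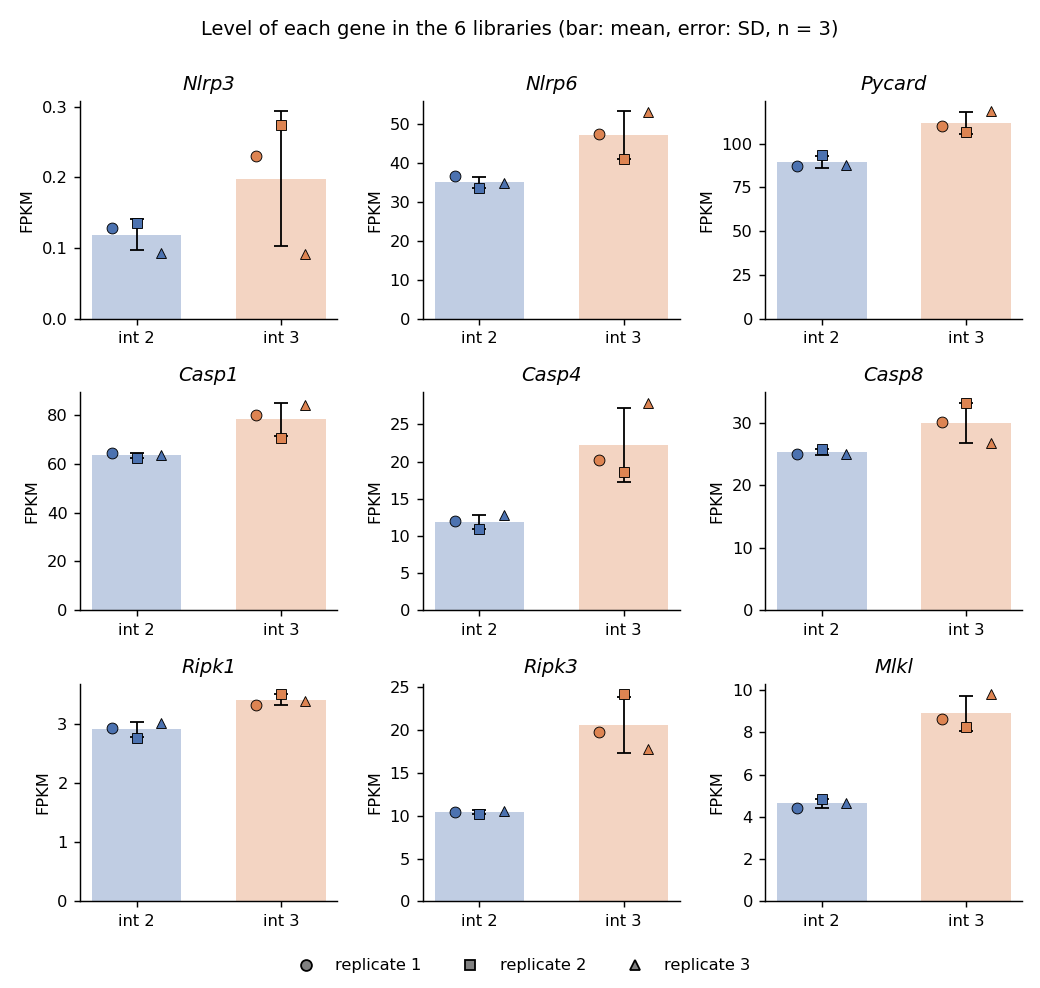
Level of each of the 9 genes in FPKM (vertical axis, from 0) in int 2 and int 3. Symbols are libraries by replicate number, bars are means and error bars SDs of 3 libraries. For every gene other than Nlrp3 the lowest int 3 library lies above the highest int 2 library.

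Ripk3, the kinase that commits a cell to necroptosis, had 10.5, 10.2 and 10.6 FPKM in the int 2 libraries against 19.7, 24.2 and 17.8 in those of int 3, here and below in the order of the replicate numbers. All int 3 libraries were higher than all int 2 libraries, and int 3-2 was the highest. The means were 10.4 ± 0.212 and 20.6 ± 3.28 (SD, n = 3 libraries each), a ratio of 1.98, with a log2 change of 0.91 (SE 0.11, limma adjusted p = 0.0043). Mlkl, the pseudokinase that carries out necroptosis, stood at 4.42, 4.83 and 4.67 FPKM in int 2, against 8.62, 8.26 and 9.83 in int 3. Here too the groups did not overlap, and int 3-3 was the highest. The means were 4.64 ± 0.209 and 8.90 ± 0.820 FPKM, a ratio of 1.92, with a log2 change of 0.81 (SE 0.08, limma adjusted p = 0.0020). These calls of Ripk3 and Mlkl held with each library left out in turn (adjusted p up to 0.0334 and 0.0200). They were lost when int 2 was averaged to 1 sample (0.328 and 0.265), a setting in which 0 of all genes passed (645 higher and 485 lower at an unadjusted p under 0.05).

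Ripk1, the kinase that passes TNF receptor signals to survival or to RIPK3, stood at 2.93, 2.76 and 3.02 FPKM in int 2, against 3.32, 3.50 and 3.39 in int 3. The int 3 libraries were all higher, by less than in Ripk3. The log2 change was 0.18 (SE 0.06) and did not pass (limma adjusted p = 0.11). Casp8, the initiator caspase of death receptor apoptosis, stood at 25.0, 25.8 and 25.0 FPKM in int 2, against 30.0, 33.2 and 26.8 in int 3. Int 3-3 was the int 3 library nearest to int 2. The log2 change of Casp8 was 0.23 (SE 0.08) and did not pass (limma adjusted p = 0.11), but it passed without int 3-3 (0.31, adjusted p = 0.0101). Without int 3-3, 3124 of all genes rose, against 1082 with all libraries. That groups do not overlap upward, as in these 8 genes, was seen in 22.4% of all tested genes.

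Casp4, the lipopolysaccharide-sensing caspase, stood at 12.0, 10.9 and 12.8 FPKM in int 2, against 20.2, 18.6 and 27.9 in int 3. The groups did not overlap, and int 3-3 stood above the other int 3 libraries. The means were 11.9 ± 0.961 and 22.3 ± 4.99 FPKM, a ratio of 1.87, with a log2 change of 0.83 (SE 0.15, limma adjusted p = 0.017). Casp1, which matures IL-1 beta and IL-18, had a higher level and a smaller change. It stood at 64.6, 62.4 and 63.6 FPKM in int 2, against 80.2, 70.8 and 84.2 in int 3, with a log2 change of 0.30 (SE 0.07, limma adjusted p = 0.041). Int 3-2 was the lowest int 3 library for Casp1 and for Casp4.

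Pycard, the adaptor of most inflammasomes, had the highest FPKM of the 9 genes. It stood at 87.2, 93.5 and 87.9 FPKM in int 2, against 110, 106 and 118 in int 3, with a log2 change of 0.31 (SE 0.06, limma adjusted p = 0.019). Nlrp6, a sensor known for its role in the intestinal epithelium, stood at 36.6, 33.7 and 34.8 FPKM in int 2, against 47.4, 41.0 and 53.2 in int 3, with a log2 change of 0.41 (SE 0.10, limma adjusted p = 0.038). In both genes the groups did not overlap and int 3-3 was highest. The calls of Casp1, Casp4, Nlrp6 and Pycard were lost when int 3-1 or any 1 of int 2-1, int 2-2 and int 2-3 was left out, which leaves 2 genes that rose, Ripk3 and Mlkl. In these fits the adjusted p was 0.0606 to 0.0837 for Casp4, 0.0632 to 0.10 for Pycard, 0.113 to 0.151 for Nlrp6 and 0.137 to 0.157 for Casp1. With median-of-ratios scaling Casp1, Nlrp6 and Pycard did not pass (0.140, 0.103 and 0.0787), which leaves 3 genes that rose. Casp1 and Nlrp6 did not pass without a filter (0.0678 and 0.0724) or with quantile normalization (0.0507 and 0.0600), which leaves 4, and Casp1 did not pass with voom (0.0606), which leaves 5.

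Nlrp3, the best studied inflammasome sensor and a gene of myeloid cells, was close to the detection floor. It stood at 0.129, 0.135 and 0.0934 FPKM in int 2, against 0.230, 0.274 and 0.0910 in int 3, under the filter, and was not tested. These values rest on 18, 19 and 13 fragments in int 2 and on 32, 38 and 13 in int 3. Int 3-1 and int 3-2 lay above int 2, and int 3-3, with 13 fragments, was level with int 2-3. Summed over a group, 50 fragments were found in int 2 (exact 95% Poisson interval 37.1 to 65.9) and 83 in int 3 (66.1 to 103), intervals that cover counting error only. Without a filter the log2 change of Nlrp3 was 0.10 (limma adjusted p = 0.43).

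**Figure D2:**
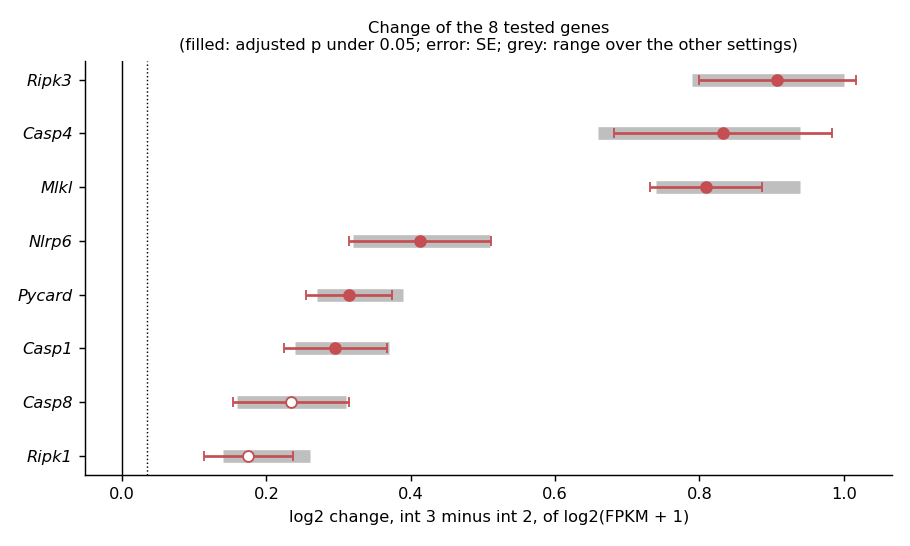
Log2 change of log2(FPKM + 1), int 3 minus int 2 (horizontal axis), for the 8 tested genes. Points are limma estimates with SE, filled where the adjusted p is under 0.05, grey bars span the values under all other settings and the dotted line is the median of all tested genes (0.03). Ripk3, Casp4 and Mlkl lie between 0.81 and 0.91 and the other genes between 0.18 and 0.41.

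In int 2 the levels ran, from high to low, in the order Pycard, Casp1, Nlrp6, Casp8, Casp4, Ripk3, Mlkl, Ripk1 and Nlrp3, and no neighbours in this order overlapped. The same order of means was found in int 3, where the ranges of Casp8 (26.8 to 33.2 FPKM) and Casp4 (18.6 to 27.9) overlapped, as did those of Casp4 and Ripk3 (17.8 to 24.2). FPKM divides by gene length, and part of this order depends on the lengths used. The length implied for Ripk1 was 16571 bases, against 6472 for its longest transcript in the GENCODE M21 annotation, and for Pycard it was 2135 against 3800. With the GENCODE lengths the order in both groups was Casp1, Pycard, Nlrp6, Casp8, Ripk3, Casp4, Ripk1, Mlkl and Nlrp3. In int 2 the mean of Pycard would then be 50.3 and that of Casp1 64.2, that of Casp4 9.31 and that of Ripk3 10.4, and that of Ripk1 7.43 and that of Mlkl 3.40. Only the length was changed, and all counted fragments were kept, also any outside that transcript, so these are not new estimates of level. For Ripk1 all GENCODE exons merged give 8344 bases, also fewer than the implied length. In that annotation Ripk1 overlaps Serpinb6a and Gm17083 on the other strand and Gm17084 on its own, and Casp8 overlaps Gm37760 on its own. Pycard overlaps Gm45205 and Mlkl overlaps Gm45712, both on the other strand. The strand setting of the counting was not given, so fragments from bases that such genes share cannot be told apart, and on the same strand a strand setting would not separate them.

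The spread within int 2 was small next to that within int 3. For Ripk3 the coefficient of variation over the int 2 libraries was 2.03%, where counting of fragments alone gives 3.77%, and for Mlkl it was 4.50% against 6.55%. Casp1 (1.72% against 1.74%) and Casp8 (1.84% against 1.95%) were near counting in int 2. Nlrp6 (4.19% against 1.35%), Pycard (3.82% against 1.23%), Casp4 (8.08% against 4.06%) and Ripk1 (4.51% against 2.46%) varied more than counting there. In int 3 the coefficient of variation was 15.9% for Ripk3 against 2.68% from counting, and 9.22% for Mlkl against 4.72%. Casp4 varied most among the tested genes in both groups, by 8.08% in int 2 and 22.4% in int 3. Ripk1 was the exception, with 4.51% in int 2 and 2.68% in int 3.

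Within int 3 the genes fell into opposite orders. Casp1, Casp4, Nlrp6, Pycard and Mlkl were highest in int 3-3 and lowest in int 3-2, and Ripk3 and Casp8 were highest in int 3-2 and lowest in int 3-3. On the log2 scale Casp4 lay 0.77, 0.65 and 1.24 above the int 2 mean in int 3-1, int 3-2 and int 3-3, and Nlrp6 0.44, 0.23 and 0.61. Ripk3 lay 0.92, 1.22 and 0.77 above it and Casp8 0.25, 0.39 and 0.08. The summed epithelial markers were also highest in int 3-3 and lowest in int 3-2 (4819, 4269 and 5356 FPKM in the order of the numbers). The summed endothelial markers ran the other way, with 83.4, 112 and 57.8 FPKM, and so did the fibroblast markers, with 466, 504 and 426 FPKM. Macrophage markers (226, 204 and 262 FPKM) had the same order as the epithelial ones. So did the sums of B cell, T cell, smooth muscle and neutrophil markers, and the goblet cell sum ran the other way. Single markers did not all follow their sum. The epithelial Krt18 (196, 221 and 166 FPKM), Krt20 and Vil1 were highest in int 3-2 and lowest in int 3-3. The macrophage Adgre1, C1qc and Csf1r were lowest in int 3-1, and the fibroblast Pdgfra was highest in int 3-3. The neutrophil sum followed Ly6g (106, 51.8 and 155 FPKM). S100a8, S100a9, Csf3r, Cxcr2 and Mmp8 were highest in int 3-2 and lowest in int 3-3. Against the goblet cell sum, Tff3 (994, 527 and 1511 FPKM), Fcgbp and Clca1 were highest in int 3-3 and lowest in int 3-2. The T cell Lck and the smooth muscle Cnn1 were lowest in int 3-3. The part of any cell type in the order of the genes was not tested.

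**Figure D3:**
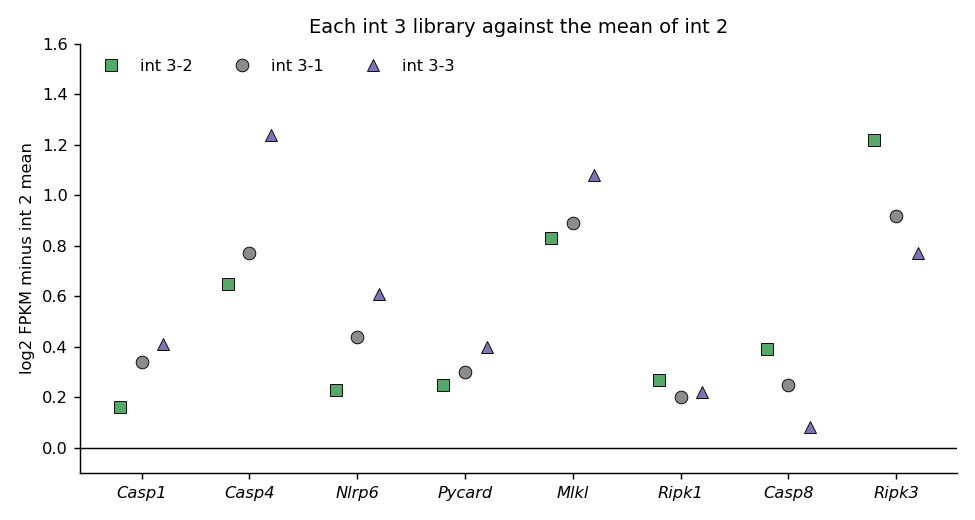
Log2 FPKM of each int 3 library minus the mean of int 2 (vertical axis) for the 8 tested genes. Symbols are int 3-1, int 3-2 and int 3-3, and the line at 0 is the int 2 mean. Int 3-3 is highest for Casp1, Casp4, Nlrp6, Pycard and Mlkl, and int 3-2 for Ripk1, Casp8 and Ripk3.

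Ratios of 2 genes within a library do not depend on how libraries are scaled, and 6 were compared, chosen after the values were seen. The ratio of Casp4 to Casp1 was 0.185, 0.175 and 0.201 in int 2 and 0.252, 0.263 and 0.332 in int 3, without overlap. The log2 ratio went from -2.42 ± 0.10 to -1.84 ± 0.21 (SD, n = 3 each; exact permutation test, two-sided p = 0.10, adjusted p = 0.20 over 6). The ratio of Ripk3 to Casp8 was 0.419, 0.395 and 0.425 in int 2 and 0.657, 0.730 and 0.666 in int 3, and that of Ripk3 to Ripk1 was 3.58, 3.69 and 3.51 against 5.94, 6.92 and 5.26. Neither overlapped between groups (exact permutation p = 0.10 and adjusted p = 0.20 for each), and 0.10 is the smallest p that 3 against 3 libraries can give.

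For the other pairs the groups overlapped. The ratio of Mlkl to Ripk3 was 0.421, 0.474 and 0.440 in int 2 and 0.437, 0.341 and 0.551 in int 3 (log2 difference -0.03, exact permutation p = 0.90, adjusted p = 0.90). That of Casp1 to Pycard was 0.740, 0.667 and 0.723 in int 2 and 0.728, 0.666 and 0.711 in int 3 (log2 difference -0.02, exact permutation p = 0.70, adjusted p = 0.84). The ratio of Nlrp6 to Pycard differed by 0.10 on the log2 scale (exact permutation p = 0.40, adjusted p = 0.60).

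The sequence before the start sites is shown for the 3 genes with the largest change and for Ripk1, the only gene of the 9 with a GAS match. RefSeq lists 12 promoter windows for the 9 genes in build GRCm38.p6, another build than the GRCm39 of the deposited values, and the 250 bases before each start were searched on both strands. The motifs were GAS (TTCNNNGAA, bound by STAT dimers), ISRE (GAAA, any pair of bases, then GAAA, bound by interferon regulatory factors) and the kappa-B consensus, bound by NF-kB. Capitals mark matches, and annotated exons are left out.

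Casp4, chr9:5308599-5308827, plus strand, 250 to 22 bases before the first start: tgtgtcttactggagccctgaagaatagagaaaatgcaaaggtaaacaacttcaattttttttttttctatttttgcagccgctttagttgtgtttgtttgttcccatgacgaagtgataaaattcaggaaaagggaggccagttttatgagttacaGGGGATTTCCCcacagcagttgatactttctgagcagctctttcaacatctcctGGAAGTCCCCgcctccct

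Ripk3, chr14:55788866-55789107, minus strand, 250 to 9 bases before the start: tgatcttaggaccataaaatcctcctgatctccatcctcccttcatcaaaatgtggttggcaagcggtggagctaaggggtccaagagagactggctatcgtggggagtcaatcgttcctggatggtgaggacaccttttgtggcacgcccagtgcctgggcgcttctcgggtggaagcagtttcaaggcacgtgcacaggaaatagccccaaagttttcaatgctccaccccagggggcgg

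Mlkl, chr8:111338206-111338455, minus strand, 250 to 1 bases before the start: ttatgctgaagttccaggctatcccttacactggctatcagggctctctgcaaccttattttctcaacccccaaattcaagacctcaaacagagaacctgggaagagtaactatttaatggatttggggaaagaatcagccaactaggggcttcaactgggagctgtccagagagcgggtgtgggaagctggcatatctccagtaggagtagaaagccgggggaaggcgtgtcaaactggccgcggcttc

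Ripk1, chr13:34002795-34002873, plus strand, 79 to 1 bases before the start: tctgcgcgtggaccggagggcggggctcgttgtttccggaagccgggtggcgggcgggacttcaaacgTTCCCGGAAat

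Casp4 held overlapping kappa-B matches that begin 93 and 92 bases before the first of its 2 starts and another that begins 39 bases before it. From the other start the same matches lie 104, 103 and 50 bases away. In RefSeq, 7.25% of all 32851 promoter windows held a kappa-B match in their 250 bases, 7.02% a GAS match and 2.98% an ISRE match. Ripk1 held GAS matches that begin 11 and 108 bases before 1 of its 2 starts, of which the nearer is shown. A Nlrp3 window held a kappa-B match. The windows of Ripk3, Mlkl, Casp1, Casp8, Nlrp6 and Pycard held none of the 3 motifs, and none of the 12 windows held the ISRE letters. A match is a string of letters and not a measured binding site, and the absence of one says only that these letters are not in the window.

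Other genes of the same pathways were read from a list of 75, of which 64 were tested, 17 rose, 1 fell and 46 did not pass. Their median log2 change was 0.19, against 0.03 for all tested genes. This list too was chosen with earlier results of these data known, so the comparison does not test it. Over all tested genes, the background for each role below, 8.64% rose and 6.70% fell. With any 1 of the int 2 libraries or int 3-1 left out, 9 to 10 rose and the call of Nlrp9b, the gene that fell, was lost. Without int 3-1 the calls of Il1b, Bak1, Apaf1, Zbp1 and Tnfrsf1a held, and those of Nlrc4, Il1r1, Casp12, Bcl2l1 and Tnfsf10 were lost. Il18bp and Tnf are counted among the genes that rose but met the filter only through int 3, so nothing is read from their calls. Nlrp9b, Casp12 and Tnfsf10 also did not pass without a filter (limma adjusted p = 0.0758, 0.0620 and 0.0787), Tnfsf10 with median-of-ratios or quantile scaling (0.0641 and 0.0706) and Bcl2l1 with group weights (0.0568). Leaving out int 3-2 gave 26 higher and 3 lower, a fit in which 1432 of all genes rose and 1201 fell. Leaving out int 3-3 gave 30 higher, a fit in which 3124 of all genes rose and 1789 fell. With all libraries 1082 rose and 839 fell.

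Among 16 sensors and activators of inflammasomes 11 were tested, 1 rose, 1 fell and 9 did not pass. These counts are near the shares over all tested genes (8.64% and 6.70%), so nothing is read from them about the class. Nlrc4, the sensor that works with NAIP proteins on bacterial flagellin and secretion systems, stood at 5.06, 4.79 and 4.40 FPKM in int 2, against 6.53, 7.95 and 6.69 in int 3 (log2 change 0.48, limma adjusted p = 0.018). Nlrp9b, a sensor of the intestinal epithelium for viral RNA, stood at 7.17, 7.94 and 7.42 FPKM in int 2, against 4.87, 3.33 and 5.42 in int 3 (log2 change -0.64, limma adjusted p = 0.036). Nlrp9b was thus the one gene of both lists that was called lower in int 3. The 5 under the filter were Nlrp1a, Nlrp1b, Mefv, Nlrp10 and Nlrp12.

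Downstream of the inflammasomes 7 of 12 pore, cytokine and receptor genes were tested, and 3 rose and 4 did not pass. Il1b, a substrate of caspase-1, stood at 1.30, 1.63 and 1.10 FPKM in int 2, against 4.75, 5.12 and 4.23 in int 3 (log2 change 1.29, SE 0.11, limma adjusted p = 0.0013). Il18bp, a secreted inhibitor of IL-18, rose from 0.848 ± 0.0278 to 2.65 ± 0.598 FPKM (log2 change 0.97, limma adjusted p = 0.0056), and met the filter only through int 3. Il1r1, the signalling receptor of IL-1, rose by 0.46 on the log2 scale (limma adjusted p = 0.013). Il18, the other cytokine substrate of caspase-1, stood at 49.8, 49.4 and 48.2 FPKM in int 2, against 68.7, 34.3 and 101 in int 3, on either side of int 2 (limma adjusted p = 0.56). Gsdmd, the pore protein cut by caspase-1 and caspase-11, stood at 47.9, 47.0 and 44.9 FPKM in int 2, against 67.7, 53.2 and 82.4 in int 3. The groups of Gsdmd did not overlap, yet it did not pass (log2 change 0.51, limma adjusted p = 0.070). Gsdmd passed without int 3-2 (0.67, adjusted p = 0.0034) or int 3-3 (0.36, adjusted p = 0.0344), and with all libraries as TPM (0.58, adjusted p = 0.0305) or with group weights (0.51, adjusted p = 0.0285). Il18 passed without int 3-2 (0.75, adjusted p = 0.0161). Without int 3-2 and without int 3-3, 1432 and 3124 of all genes rose, against 1082 with all libraries.

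Of 17 other caspases and genes of mitochondrial apoptosis 17 were tested, 5 rose and 12 did not pass. Casp12, a caspase of the inflammatory group, stood at 5.78, 5.89 and 5.76 FPKM in int 2, against 10.9, 11.8 and 7.62 in int 3 (log2 change 0.69, limma adjusted p = 0.029). Bak1, a pore-forming protein of the mitochondrial membrane, rose from 47.1 ± 0.796 to 72.9 ± 4.17 FPKM (log2 change 0.62, limma adjusted p = 0.0017). Apaf1, the scaffold that activates caspase-9, rose from 3.62 ± 0.176 to 5.86 ± 0.123 FPKM (log2 change 0.57, limma adjusted p = 0.0028). Bcl2l1, which encodes the survival protein BCL-XL, rose by 0.29 on the log2 scale (limma adjusted p = 0.030). Casp14, a caspase of keratinocytes, stood at 7.94, 7.40 and 8.25 FPKM in int 2, against 4.85, listed at 0 and 9.05 in int 3, and did not pass (limma adjusted p = 0.35).

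Of 30 genes of death receptor complexes and of necroptosis regulation 29 were tested, 8 rose and 21 did not pass. Zbp1, a nucleic acid sensor that engages RIPK3, showed the largest change of both lists, from 3.25, 3.13 and 2.65 FPKM in int 2 to 17.8, 15.6 and 21.2 in int 3 (log2 change 2.25, SE 0.12, limma adjusted p = 3e-04). Tnf, the cytokine that starts the RIPK1 complex, rose from 0.394 ± 0.0715 to 1.92 ± 0.384 FPKM (log2 change 1.06, limma adjusted p = 0.0033), and met the filter only through int 3. Tnfrsf1a, its receptor, rose from 30.5 ± 0.688 to 51.8 ± 1.13 FPKM (log2 change 0.75, limma adjusted p = 0.00046). Tnfsf10, the death ligand TRAIL, rose by 0.59 on the log2 scale (limma adjusted p = 0.037). Fadd, the adaptor that recruits caspase-8, and Cflar, the inhibitor of caspase-8, did not pass (log2 changes 0.13 and 0.25, limma adjusted p = 0.33 and 0.12).

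**Figure D4:**
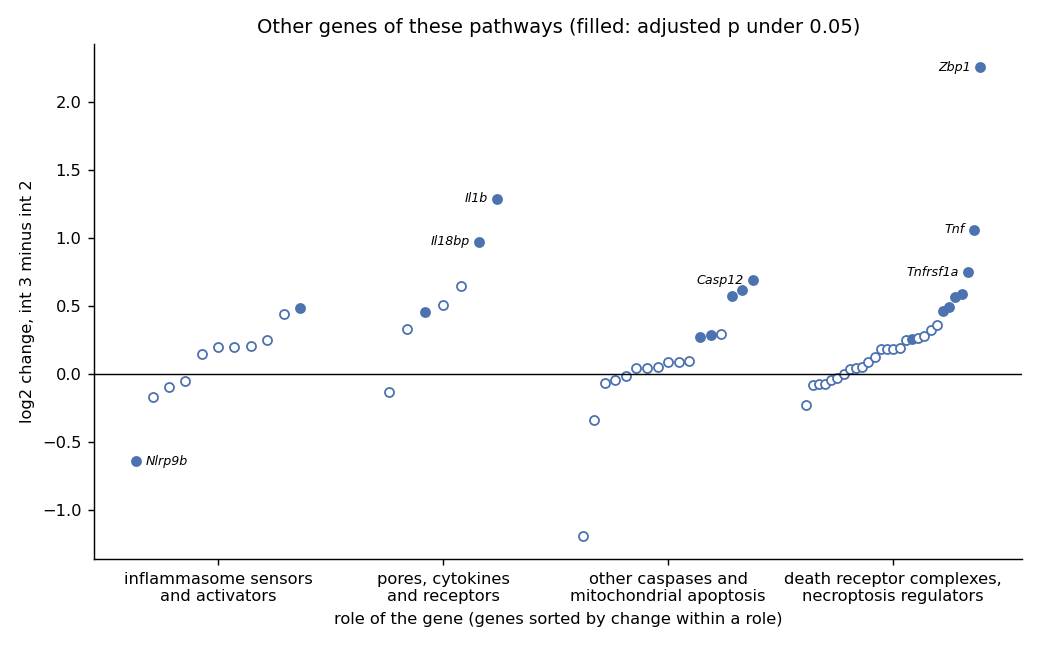
Log2 change, int 3 minus int 2 (vertical axis), of the 64 tested pathway genes by role (horizontal axis, sorted within a role). Filled points have a limma adjusted p under 0.05, and those beyond 0.63 in size are named. Zbp1 is highest at 2.25, and Nlrp9b at -0.64 is the lowest filled point. The open point below it is Casp14.

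Genes with the most similar profile were found by the root mean square distance between centred log2(FPKM + 1) profiles over the 6 libraries, for the 2 members that spanned 1 or more on this scale. Their likeness over these libraries is what chose them. Nearest to Ripk3 were Pmepa1, an inhibitor of TGF-beta signalling (distance 0.030), Sema3f, a secreted semaphorin (0.058), and Anxa2, a membrane-binding annexin (0.059). Pmepa1 stood at 8.49, 8.13 and 8.60 FPKM in int 2 and 16.8, 19.6 and 15.1 in int 3. Nearest to Casp4 were Gpr15lg, a ligand of the receptor GPR15 (0.085), Parp9, an ADP-ribosyltransferase family member (0.088), and Wnt4, a secreted Wnt ligand (0.093), which met the filter only through int 3. Parp9 stood at 10.1, 9.82 and 10.7 FPKM in int 2 and 19.8, 16.7 and 22.5 in int 3.

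Marker levels of cell types moved between the groups as well. Of 8 macrophage markers, genes of cells that carry inflammasomes, 6 rose, 0 fell and 2 did not pass, and their sum went from 148 to 156 FPKM in int 2 to 204 to 262 in int 3. None of them was at 0 in any library. Of 8 epithelial markers 0 passed in either direction, with sums of 4733 to 4775 and 4269 to 5356 FPKM. All 6 B cell markers fell, from sums of 134 to 140 to sums of 4.52 to 38.9 FPKM, as did 4 of 6 T cell markers (22.6 to 24.0 and 5.77 to 12.4). Of these 4, Cd5 met the filter only through int 2, so nothing is read from its call. Of 6 fibroblast markers 4 rose (378 to 380 and 426 to 504), of 5 endothelial markers 1 rose (48.3 to 49.2 and 57.8 to 112), and of 6 smooth muscle markers 2 fell (4028 to 4041 and 3230 to 3805).

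Of 6 goblet cell markers 0 passed (1990 to 2009 and 2940 to 3900 FPKM). Of 6 neutrophil markers 3 were tested and 2 passed, S100a8 and S100a9, which met the filter only through int 3, so that nothing is read from their calls. Their sum of 39.0 to 39.9 FPKM in int 2 and 75.9 to 162 in int 3 was mostly Ly6g, a member of a family of close paralogs, and S100a8, S100a9, Cxcr2 and Mmp8 were listed at 0 in some libraries. The part of any of these cell types in the levels of the 9 genes was not tested.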

How the data were processed

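The 6 samples are total RNA of mouse large intestine, taken with TRIzol and sequenced from libraries of a VAHTS Universal V10 kit, as the labels' protocols state. A single table of FPKM was deposited by the authors, a unit read from its name and values. The submitters' processing notes name GRCm39. How reads were aligned and counted, with which annotation and strand setting, is not given in the sources used here.

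Columns were matched to samples through their titles. For int 3 minus int 2, limma 3.58.1 (R 4.3.3, trended eBayes, two-sided) was run on log2(FPKM + 1) of the genes that reached FPKM 1 in 3 or more libraries, with Benjamini-Hochberg adjustment. The words rose and fell stand for an adjusted p under 0.05. Fragments were recovered from the steps of the values and were whole for 12508 of 12525 tested genes (99.9%, tolerance 0.01 fragments). They served for counting error, the spread within groups and the voom alternative. Summaries, motif searches and plots used Python 3.11.15 with numpy 2.4.6, pandas 2.3.3 and scipy 1.17.1, and matplotlib 3.10.9. The fit and the recovery were tested on simulated data. Alternatives changed the pseudocount, the filter, the scaling, the replicate block, the weights and the libraries used.

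The members and lists were chosen with earlier results of these data known. The rule for names took all 9 members, in each pathway role up to 4 passing genes per direction with the largest change, the 3 nearest genes of each member that spans 1 or more, and Gsdmd, Il1b, Il18 and Zbp1. Any other gene was named after its values were seen.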

Additional observations from a re-analysis of the deposited data

How the results depend on the processing

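The direction of all 8 tested members was kept under all 17 other settings that included them. Of the 6 members that rose, 3 passed with median-of-ratios scaling, 3 with the replicate number as a block, 4 without a filter, 4 with quantile normalization, 5 with voom and 0 with int 2 averaged to 1 sample (3 higher and 0 lower at an unadjusted p under 0.05). With 1 library left out 2 to 7 rose. Of the pathway genes 11 rose at a mean FPKM of 5 or more, where fewer genes were tested, 10 with the replicate block, 0 with int 2 averaged (12 at an unadjusted p under 0.05) and 9 to 30 with 1 library left out. Against the 1 that fell there were 2 with median-of-ratios and 2 with quantile scaling, 0 with the replicate block, 0 with int 2 averaged (0 at an unadjusted p under 0.05) and 0 to 3 with 1 library left out. Of all genes 1082 rose and 839 fell. The counts were 516 and 373 with the block, 0 and 0 with int 2 averaged (645 and 485 at an unadjusted p under 0.05), 372 to 3124 and 241 to 1789 with 1 library left out, and 1274 and 609 with TPM. At a mean FPKM of 5 or more 496 fell. Il18 turned to -0.02 without int 3-3 and reached 0.75 without int 3-2. The cause was not tested. No pairing by replicate number was seen. Deviations of same-numbered libraries from their group means correlated at -0.015, 0.004 and -0.022, and no library correlated best with its own number. With 3 libraries in a group these correlations cannot exclude a pairing or a shared batch. Library weights did not converge and were not used. Depth limits Nlrp3, with 13 to 38 fragments per library.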
